A study of Drosophila melanogaster with 5 samples.

Results

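Translated ORFs of *Drosophila melanogaster* S2 cells were compared with and without cycloheximide, in lysates footprinted with A-RNaseI in Buffer 1. The members of the comparison are 2 of the 5 deposited lists of translated ORFs, chosen by their labels: the list with cycloheximide and the untreated list of the same RNase and buffer. Each list came from 1 library, so every difference below is between those libraries. It was not set against a spread between replicates and no test between conditions was run. The question was which stop codons, host genes, ORF types and start codons each list held, and how the P-sites on the same ORF compared.

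S2 cells are a macrophage-like line derived from late embryos. Cells of the first group were given cycloheximide for 3 min before they were pelleted, and those of the other were not. What the groups shared was the wash and the lysis buffer, both of which held cycloheximide, so the untreated cells also met the drug, but after harvest. Both lysates were digested overnight with Ambion RNase I, called A-RNaseI, in Buffer 1 (50 mM Tris-HCl, 150 mM NaCl and 10 mM MgCl2), and single ribosomes were taken from a sucrose gradient. The labels and the methods differ in the unit of the cycloheximide concentration. A second pair of lists, with and without cycloheximide, came from E-RNaseI (Thermo Fisher) in Buffer 2 (100 mM Tris-HCl, 50 mM NaCl and 10 mM MgCl2 in the labels, with less NaCl in the methods). It shares no library with the A-RNaseI pair and was read beside it, as was a deeper untreated E-RNaseI list.

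Ribo-Seq sequences the stretch of mRNA that a ribosome protects from RNase, and the position of each footprint gives the codon in the ribosomal P-site. Cycloheximide binds the large ribosomal subunit and stops elongation, while initiation can go on. It is known from yeast and other organisms to leave more footprints at and after start codons when given to living cells. RiboTaper, which the authors used, calls an ORF translated where P-sites follow the triplet pattern of the reading frame, and among in-frame ATGs it takes the most upstream one with enough P-sites before the next.

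The list with cycloheximide held 7678 ORFs on 5260 distinct stop codons, and the untreated list 6621 ORFs on 4601. With cycloheximide, 4337 host genes had an ORF, against 3865 host genes in untreated cells. The smallest number of P-sites of an ORF was 6 in both lists, and the median per stop codon was 69.0 with cycloheximide and 52.0 untreated. Summed over stop codons, with the largest ORF of each, there were 900819 P-sites with cycloheximide and 610660 untreated. The list with cycloheximide was thus the deeper one, and the read lengths used for it included an additional shorter length. Depth, read length and treatment cannot be told apart in these lists. Of the 12 hemocyte markers checked, 5 were found with cycloheximide and 6 untreated, among them srp and Pxn in both, while no marker of neurons, muscle, fat body or germline was found in either list.

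Of the untreated stop codons, 4007 were also in the list with cycloheximide, which is 87.1% (95% Wilson interval 86.1% to 88.0%). Another 1253 stop codons were found only with cycloheximide, 23.8% of its list, and are called gained. Those found only in untreated cells numbered 594, 12.9% of that list, and are called lost. The intervals here and below cover counting error only. Most gained and lost stop codons were thinly covered. Gained ones had a median of 26.0 P-sites with cycloheximide and lost ones 17.5 P-sites untreated, while shared ones had 96.0 with cycloheximide. Of the gained stop codons, 111 had fewer P-sites than the minimum of 6 times the depth ratio of the lists, given below, while most lay above that scaled limit. At the other end, 85 gained and 16 lost stop codons had at least 100 P-sites.

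Gained and lost ORFs were alike in form and shorter than shared ones. The median length was 1044 nt for gained, 1070 nt for lost and 1488 nt for shared stop codons. ORFs under 300 nt made up 9.66% of gained, 10.6% of lost and 2.75% of shared stop codons. Single-exon ORFs made up 21.4% of the gained, 18.5% of the lost and 11.7% of the shared stop codons. By type, the gained set held 1213 annotated coding ORFs (CCDS), 34 uORFs, 1 dORF and 5 ncORFs, which lie upstream or downstream of a coding sequence or on non-coding RNA. The lost set held 586 CCDS ORFs, 6 uORFs, 1 dORF and 1 ncORF.

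The 6 gained stop codons with most P-sites were those of Rack1, RpL10Ab, CNBP, CG2852, CG17896 and Jupiter. Absence from a list is no measured 0, since the lists give no value for an ORF that was not called. Rack1, a scaffold protein of the small ribosomal subunit, had an ORF of 954 nt (chromosome 2L, 7825704 to 7827168, minus strand, Release 6) with 1559 P-sites with cycloheximide that the untreated list did not hold. A shorter Rack1 ORF of 327 nt, ending at another stop codon, was in both lists with 531 P-sites with cycloheximide and 365 untreated. Rack1 as a gene was therefore found in both. RpL10Ab, a protein of the large subunit, had a gained ORF of 171 nt (3L, 11822887 to 11823367) with 1191 P-sites. It starts at the same position of the mRNA as the full RpL10Ab ORF of 651 nt, which had 2553 P-sites with cycloheximide, so these share P-sites. The short ORF lies on an RpL10Ab transcript on which a second ORF, of 465 nt and ending at the stop codon of the full one, was called in both lists with 1355 P-sites with cycloheximide and 757 untreated. The full ORF was not called in untreated cells.

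The other 4 of the 6 gained stop codons with most P-sites were those of genes with no ORF in the untreated list. CNBP, a zinc-finger protein that binds nucleic acids, had 935 P-sites with cycloheximide on 495 nt. CG2852, a cyclophilin, had 654 P-sites on 615 nt, and CG17896, a predicted methylmalonate-semialdehyde dehydrogenase, had 554 on 1560 nt. Jupiter, a protein of microtubules, had 419 on 513 nt. In the untreated E-RNaseI list, however, CNBP, CG2852 and Jupiter were called, with 409, 565 and 410 P-sites. The CG17896 stop codon was not in that list but had 939 P-sites in the deep untreated one. These genes were therefore not confined to cycloheximide lists.

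The 4 lost stop codons with most P-sites belonged to ribosomal proteins, which are highly covered as a group. By gene, 3 of 48 large-subunit and 3 of 29 small-subunit proteins of the untreated list were lost, 6.25% and 10.3%, beside 11.8% of all its genes. RpS25 (351 nt, 3R, 11215554 to 11216260, minus strand) had 825 P-sites untreated and was not listed with cycloheximide. RpS18 had 684 on 456 nt, RpLP2, an acidic protein of the ribosomal stalk, 557 on 339 nt, and RpL39 544 on 153 nt, all in untreated cells only. The chromatin-associated vig2 followed with 418 P-sites, and a stop codon of CG13887 with 347. CG13887 kept another stop codon, at which an ORF of 303 nt had 59 P-sites with cycloheximide and one of 684 nt had 426 untreated.

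The E-RNaseI lists separated these cases. The stop codons of RpS25 and RpLP2 were absent from both cycloheximide lists and present in all 3 untreated lists. RpS25 had 861 P-sites in the untreated E-RNaseI list and 12624 in the deep one, and RpLP2 had 418 and 5937. RpS18, in contrast, had 1824 P-sites with cycloheximide in the E-RNaseI list and 464 without it. The vig2 stop codon had 1022 P-sites with E-RNaseI and cycloheximide and was not listed in the matching untreated list. The RpL39 stop codon was in neither standard E-RNaseI list but had 8852 P-sites in the deep one, and another ORF of RpL39 had 33 P-sites with E-RNaseI and cycloheximide.

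Of the 20 stop codons lost in both pairs, 19 were in every untreated list, the deep one included, and in neither cycloheximide list. Of the 301 gained in both pairs, 23 were in no untreated list, while the deep untreated list held the others. In all, the A-RNaseI pair had 594 lost and 1253 gained stop codons. Beside RpS25 and RpLP2, the 19 included RpL13A, Ubc10, LSm1 and cype, chosen here after their values were seen. The RpL13A one was a short ORF of 303 nt with 252 P-sites in untreated cells, on a transcript whose downstream ORF, at the usual RpL13A stop codon, was called in both lists. The ubiquitin-conjugating enzyme Ubc10 and LSm1, a subunit of the mRNA decapping machinery, had 57 P-sites each untreated, and cype, a subunit of cytochrome c oxidase, had 52. These are small ORFs, of 462, 411 and 231 nt. Neither the labels nor the methods say whether the deep untreated list came from cells of its own, so it may not count as a separate library.

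The 23 stop codons of cycloheximide lists alone were headed by the short RpL10Ab ORF and by Xbp1. Xbp1 encodes a bZIP transcription factor of the unfolded protein response, and its mRNA is spliced by Ire1. Its ORF of 735 nt (2R, 21144064 to 21144863) had 307 P-sites with cycloheximide and was not called in untreated cells. With E-RNaseI and cycloheximide an ORF with the same stop codon had 697 P-sites and was 921 nt long. A second ORF of the same Xbp1 transcript, 543 nt long and downstream of the other, was in both A-RNaseI lists, with 25 P-sites with cycloheximide and 34 untreated. The next was Tbcb, a tubulin-folding cofactor, with 153 P-sites with cycloheximide on 732 nt and no ORF in the untreated list. Other stop codons were gained in both pairs but had P-sites in the deep untreated list. CG1943 had 148 with cycloheximide here, 345 with E-RNaseI and cycloheximide and 2282 in the deep list, and mtSSB, which binds single-stranded DNA in mitochondria, had 81, 196 and 820.

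**Figure D1:**
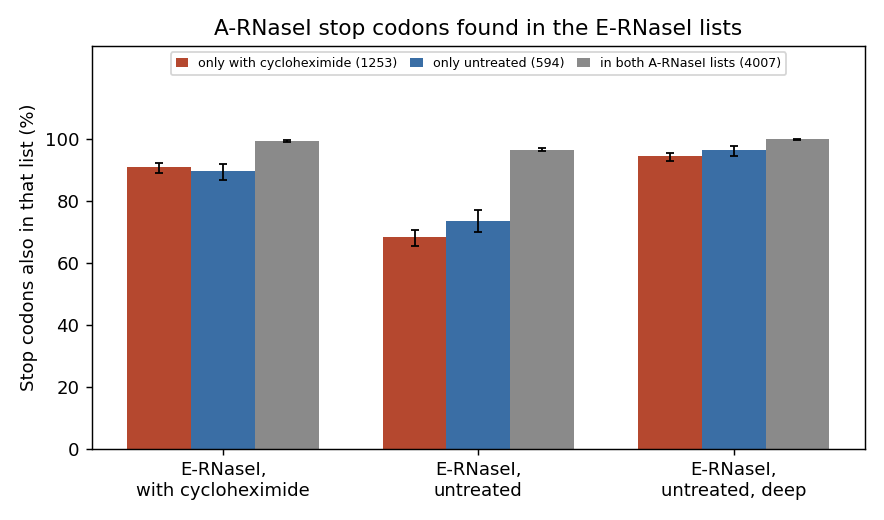
Share of A-RNaseI stop codons (in %, with 95% Wilson intervals as error bars) that were also in each E-RNaseI list. Red bars show stop codons found only with cycloheximide, blue bars those found only untreated and grey bars those in both A-RNaseI lists. The red and blue bars are at like heights in each list, 90.8% and 89.6% with cycloheximide, and the grey bars are above both.

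As the plot of stop codons in the E-RNaseI lists shows, gained and lost stop codons were found there about equally often, whatever the treatment. Of the gained ones, 90.8% (89.1% to 92.3%) were in the E-RNaseI list with cycloheximide and 68.2% (65.5% to 70.7%) in the untreated one. Of the lost ones, 89.6% (86.8% to 91.8%) were in the E-RNaseI list with cycloheximide and 73.6% (69.9% to 77.0%) in the untreated one. The deep untreated list held 94.4% of the gained and 96.3% of the lost stop codons. Only 47 gained and 17 lost stop codons were in no E-RNaseI list.

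Stop codons gained with A-RNaseI were more often gained than lost with E-RNaseI, and so were those lost with A-RNaseI. Whether shared gain or loss exceeded the frequency of each class in the E-RNaseI pair was not tested. Of the stop codons gained with A-RNaseI, 301 were also gained with E-RNaseI, 24.0% of the A-RNaseI set and 22.3% of the 1351 of the E-RNaseI set, and 17 were lost there. Of those lost with A-RNaseI, 20 were also lost with E-RNaseI, 3.37% of the A-RNaseI set and 15.7% of the 127 of the E-RNaseI set, and 115 were gained there. Gain was the more frequent class in the E-RNaseI pair as a whole, with 1351 of 7035 stop codons with cycloheximide gained and 127 of 5811 untreated ones lost. The E-RNaseI list with cycloheximide was 3.07 times as deep as its untreated list on shared ORFs.

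Counted by host gene, 928 genes were found only with cycloheximide, 21.4% of the genes of that list, and 456 only in untreated cells, which is the 11.8% given above. A further 3409 genes were in both, or 88.2% (87.2% to 89.2%) of the untreated genes. Most gained stop codons brought a new gene. Of the 1128 gained stop codons with 1 host gene, 127 lay in a gene that had an ORF in the untreated list, and of 553 such lost stop codons 76 lay in a gene with an ORF with cycloheximide.

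Gene groups differed in how many members were gained. Aminoacyl-tRNA synthetases, which charge tRNAs, numbered 30 with cycloheximide and 21 untreated, so that 9 of the 30 were gained and none was lost. Among these, the enzymes of mitochondria numbered 13 with cycloheximide and 5 untreated, with between 11 and 57 P-sites for the 8 gained, while the other synthetases numbered 17 and 16. The one gained beside them was LysRS, with 206 P-sites. AlaRS and GluProRS had most P-sites in this group, 944 and 617 with cycloheximide against 716 and 439 untreated. Proteins of the mitochondrial ribosome numbered 53 with cycloheximide and 41 untreated, with 15 (28.3%) gained at 17 to 59 P-sites and 3 (7.32%) lost at 24 to 63. Over the whole list 21.4% of genes were gained, and nothing particular to these groups was tested. Both groups are thinly covered beside the cytosolic machinery.

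Most members of abundant machines that were found at all were found in both lists. The gene lists also hold paralogs, and of the members that RefSeq annotates, 48 of 54 large-subunit, 31 of 39 small-subunit, 31 of 48 proteasome and 58 of 91 respiratory genes were in at least 1 list. All 45 large-subunit ribosomal proteins found with cycloheximide were among the 48 found untreated, and RpL36, RpL39 and RpLP2 were lost. For the small subunit 28 were found with cycloheximide and 29 untreated, with RpS14a and RpS28b gained and RpS18, RpS25 and RpS19b lost. The last is a paralog with 6 P-sites. Of proteasome subunits 30 were found with cycloheximide and 31 untreated. The 17 genes of the actin and tubulin cytoskeleton and the 13 of the COPI and COPII vesicle coats were found in both lists. Respiratory chain and ATP synthase genes numbered 56 with cycloheximide and 51 untreated, with UQCR-Q (359 P-sites) and ND-B12 (214) the most covered of the 7 gained. Of translation factors, 41 were found with cycloheximide and 39 untreated. The 4 gained were Thor, the fly 4E-binding protein, and the eIF2Balpha, eIF2Bgamma and eIF2Bdelta subunits of the exchange factor for eIF2, while a further subunit, eIF2Bbeta, was lost. With 17 to 49 P-sites each, they were near the median of gained stop codons. In the stress response list of 12 genes, 8 were found with cycloheximide and 8 untreated, with Atf6 gained at 36 P-sites and crc, the fly ATF4, lost at 35. Cell cycle and replication genes numbered 24 with cycloheximide and 26 untreated. The mitotic kinase Cdk1 (132 P-sites) and CycE (38) were gained, and the kinase aurA (80) and Orc2, Orc4 and Orc5 of the origin recognition complex (10 to 26) were lost. Glycolytic genes numbered 10 in each list, with Pgk (234) gained and Ldh (14) lost.

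P-sites could be compared directly where the same ORF, exon for exon, was called in both lists. This held for 1942 stop codons, 48.5% of the shared ones. On these ORFs the list with cycloheximide had 571723 P-sites and the untreated list 404653, a ratio of 1.41. Relative P-sites are given below as the log2 of the ratio of P-sites with cycloheximide over untreated, divided by this depth ratio, so that 0 means an equal share of the library. Median density was 11.9 P-sites per 100 nt with cycloheximide and 8.20 untreated over the 1832 identical ORFs with at least 50 P-sites in the lists together.

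The 1832 ORFs kept nearly the same relative P-sites. Their interquartile range ran from −0.20 to 0.24, and 1663 of them (90.8%) were within 1.5-fold. At least 2-fold higher with cycloheximide were 13 ORFs, 0.71% of those compared, and at least 2-fold lower were 4, 0.218% of those compared. The SD was 0.35 over all ORFs, and 0.27 among the 265 with 808 or more P-sites, where counting error alone gives 0.078. Among those with 50 to 100 P-sites the SD was 0.45, against 0.35 from counting error. The libraries therefore differed on well-covered ORFs by more than counting error. How much a repeated untreated library would differ was not tested.

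**Figure D2:**
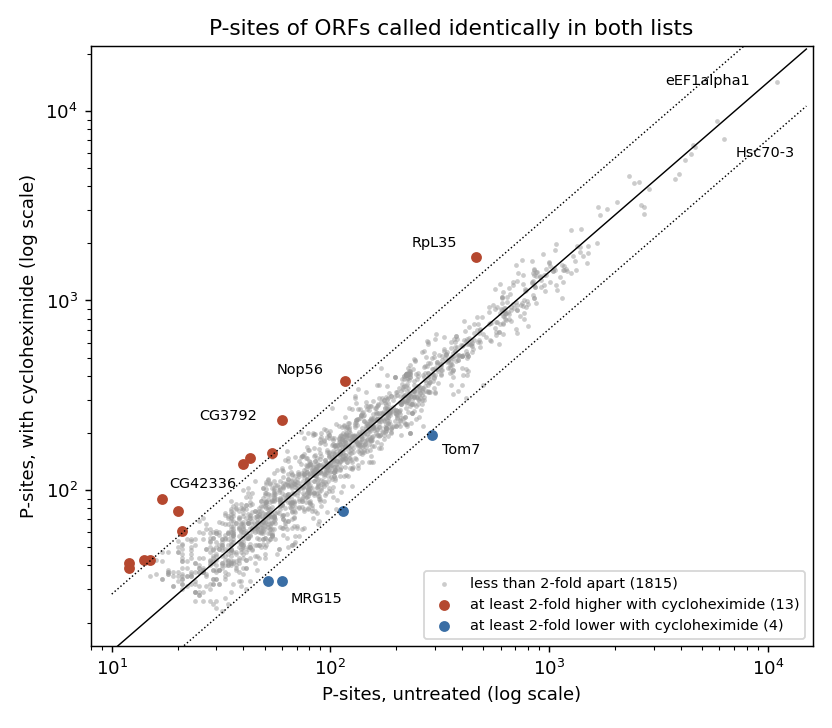
P-sites with cycloheximide (y axis, log scale) against P-sites in untreated cells (x axis, log scale) of the 1832 identical ORFs with at least 50 P-sites in the lists together. The solid line is the depth ratio of 1.41 and the dotted lines are 2-fold above and below it, with 13 ORFs in red above and 4 in blue below. RpL35 is the only ORF with over 1000 P-sites past a dotted line.

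RpL35, a large-subunit ribosomal protein (369 nt, X, 5672874 to 5673447), was the most covered of the ORFs at least 2-fold higher. It had 1687 P-sites with cycloheximide and 464 untreated, a relative difference of 1.36 (exact 95% interval 1.21 to 1.51). With E-RNaseI the same ORF had 3212 P-sites with cycloheximide and 512 untreated, at 1.03 (0.90 to 1.17). RpL35 was thus higher with cycloheximide in both pairs. Nop56, a core protein of the snoRNPs that guide rRNA methylation, had 376 P-sites with cycloheximide and 117 untreated (1.19, with a lower bound of 0.88). CG3792 had 235 with cycloheximide and 60 untreated (1.47, 1.06 to 1.91), and with E-RNaseI 293 and 56 (0.77, 0.35 to 1.21).

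The largest relative difference was that of a short ORF of CG42336 (105 nt, 2R, 11295875 to 11297354, minus strand), with 90 P-sites with cycloheximide and 17 untreated, at 1.91 (1.15 to 2.75). Another CG42336 ORF, of 195 nt and with a start at the same place in the mRNA, had 149 P-sites with cycloheximide and 54 untreated. A pair of CG11790 ORFs that overlap had 148 and 137 P-sites with cycloheximide and 43 and 40 untreated, at 1.28 each. CG14629 had 156 with cycloheximide and 54 untreated (1.03), and with E-RNaseI 318 and 62 (0.74, 0.35 to 1.16). SrpRalpha, the receptor subunit that docks signal-recognition particles at the endoplasmic reticulum, had 203 and 73 (0.98), just inside 2-fold. The remaining ORFs past 2-fold had between 12 and 21 P-sites in untreated cells. They were those of CG8490, IntS14 of the Integrator complex, wap, mRpS14, CG4287 and an ORF that lies in the spans of CG34310, Galt and cup.

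The 4 ORFs at least 2-fold lower were those of MRG15, cnn, Tom7 and ifc. Tom7, a subunit of the mitochondrial import complex (162 nt, 2R, 8951794 to 8952065), had 194 P-sites with cycloheximide and 290 untreated, at −1.08 (−1.35 to −0.81). With E-RNaseI Tom7 had 461 with cycloheximide and 125 untreated, at 0.27 (−0.02 to 0.56), so its lower share was not seen in that pair. The chromatin protein MRG15 had 33 P-sites with cycloheximide and 60 untreated (−1.36, −2.02 to −0.72), against −0.02 (−0.51 to 0.49) with E-RNaseI. An ORF of ifc, the sphingolipid desaturase, had 78 with cycloheximide and 114 untreated (−1.05), and −0.52 (−1.11 to 0.11) with E-RNaseI. The centrosomal cnn had 33 with cycloheximide and 52 untreated (−1.15, −1.83 to −0.50).

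shot, a spectraplakin that links actin and microtubules, had 2 of the lowest relative P-sites among ORFs with at least 100 P-sites. Its ORF of 25863 nt had 359 P-sites with cycloheximide and 499 untreated, at −0.97 (−1.17 to −0.78). A second shot ORF of 15837 nt, which shares most of its exons, had 307 and 418, at −0.94. With E-RNaseI the same ORFs had −0.66 (−0.88 to −0.45) and −0.59 (−0.83 to −0.35). shot was thus lower with cycloheximide in both pairs. RanBP3, which binds the GTPase Ran, had 79 P-sites with cycloheximide and 106 untreated (−0.92), and CG5196 had 66 and 88 (−0.91). A pair of ORFs of Eph, the ephrin receptor, had 51 P-sites with cycloheximide and 67 untreated each (−0.89), with an interval in the E-RNaseI pair that includes 0 (−0.80 to 0.21).

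The most covered ORFs were the same genes in both lists. eEF1alpha1, the elongation factor that delivers tRNAs, had 14280 P-sites with cycloheximide and 10994 untreated (−0.12, −0.16 to −0.09). Act5C, the cytoplasmic actin, had 8792 and 5824 (0.10, 0.05 to 0.14). The endoplasmic reticulum chaperone Hsc70-3 had 7125 and 6329 (−0.33, −0.38 to −0.28). The order of Act5C and Hsc70-3 thus differed between the lists. With E-RNaseI Hsc70-3 was at −0.32, eEF1alpha1 at −0.14 and Act5C at 0.24. RpL40, a ribosomal protein made as a fusion with ubiquitin, had 1204 P-sites with cycloheximide and 681 untreated (0.32, 0.19 to 0.46), and 0.15 (0.03 to 0.26) with E-RNaseI.

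Across ORFs, relative P-sites of the A-RNaseI pair went with those of the E-RNaseI pair, and more closely at higher coverage. Pearson's r was 0.52 (Spearman's rho 0.53) over 1186 ORFs with at least 50 P-sites, 0.64 (0.62) over 801 with at least 200 and 0.69 (0.68) over 386 with at least 500 in the A-RNaseI pair. The sign was the same in 68.6%, 70.5% and 72.3% of these ORFs. The pairs share no library, but the points share the properties of each ORF, such as its length and base composition, and ORFs are not independent replicates. No p-value is given for this reason.

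**Figure D3:**
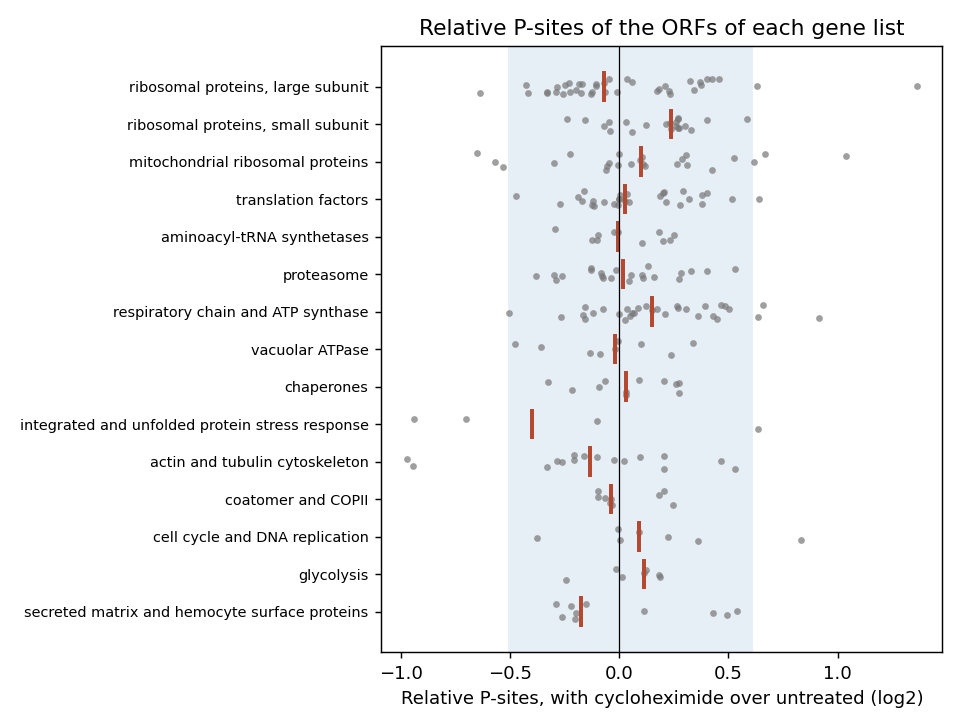
Relative P-sites (x axis, log2 of cycloheximide over untreated after the depth ratio) of each identical ORF with at least 50 P-sites in the lists together, by gene list (rows). Points are ORFs, red marks are medians and the shaded band holds the range from the 5th to the 95th percentile of all 1832 ORFs, −0.51 to 0.61. Medians of most lists stand near 0, and that of the small ribosomal subunit is at 0.24.

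In the plot by gene list, medians of lists with at least 7 ORFs ran from −0.17 to 0.24, beside 0.00 over all ORFs. No test of a list was run. ORFs of 1 gene that overlap and share P-sites were counted separately, so a list can hold more ORFs than genes. The 21 small-subunit ribosomal ORFs, of 18 genes, had a median of 0.24 and 16 of them were above 0. The 39 large-subunit ORFs, of 37 genes, had a median of −0.07 with 16 above 0. The extremes were RpL35, described above, and RpL11, with 1033 P-sites with cycloheximide and 1139 untreated (−0.64, −0.76 to −0.52). The most covered were RpL5 (3039 and 1837 P-sites, 0.23) and RpS3A (2342 and 1254, 0.40), with the cycloheximide value first.

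Respiratory chain and ATP synthase ORFs had a median of 0.15, with 23 of 31 above 0. In this group the complex I subunit ND-B14.5B had 272 P-sites with cycloheximide and 102 untreated (0.92, 0.58 to 1.26), and the ATP synthase subunit ATPsynC 1641 and 748 (0.63). ATPsynbeta, the catalytic subunit, had 3854 and 2873 (−0.07). Mitochondrial ribosomal proteins had a median of 0.10 over 24 ORFs, and mRpS14 was past 2-fold with 61 P-sites with cycloheximide and 21 untreated (1.04, 0.30 to 1.83). mRpL28 was the lowest of the group, at −0.65. Translation factors (0.03), proteasome subunits (0.02), chaperones (0.03), aminoacyl-tRNA synthetases (−0.01), vacuolar ATPase (−0.02) and vesicle coats (−0.04) had medians near 0. Glycolytic enzymes had a median of 0.11 over 7 ORFs of 5 genes.

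Secreted matrix and hemocyte surface proteins had a median of −0.17 over 10 ORFs of 8 genes. LanA, the laminin alpha chain, had 4363 P-sites with cycloheximide and 3776 untreated (−0.29, −0.35 to −0.23), and the collagen-binding SPARC 3203 and 2639 (−0.22). The scavenger receptor crq stood at 0.49 (0.13 to 0.86), so its members lay on either side of 0. Cytoskeletal ORFs had a median of −0.13 over 16 ORFs of 12 genes, with shot lowest and chic, the fly profilin, highest (0.53, 0.39 to 0.68). CycA, a mitotic cyclin, had 199 P-sites with cycloheximide and 79 untreated (0.83, 0.45 to 1.23), the highest of 7 cell cycle ORFs, whose median was 0.09.

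In the stress response list 4 ORFs were compared, with a median of −0.40. Xrp1, a bZIP factor induced in loser cells of cell competition, had 200 P-sites with cycloheximide and 91 untreated (0.64, 0.27 to 1.01) on an ORF of 864 nt. The downstream Xbp1 ORF had 25 and 34 (−0.94, −1.75 to −0.15) and Ire1, the kinase and RNase, 133 and 101 (−0.10, −0.49 to 0.29). The fourth was the uORF of PPP1R15 described below. SamDC, of polyamine synthesis, had 83 with cycloheximide and 41 untreated (0.52, with an interval that includes 0).

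Longer ORFs had slightly lower relative P-sites. Medians were 0.03 for 60 ORFs of up to 300 nt, 0.07 for 424 ORFs of 1002 to 1500 nt and −0.08 for 225 ORFs of 3006 nt or longer. The median of ORFs in the lowest quartile of length was 0.10 above that in the highest quartile. In the E-RNaseI pair this difference was 0.23. Single ORFs within a length class had an SD between 0.29 and 0.49.

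Where transcript and stop codon were the same, the start codon often was not. Of 5621 such pairs of ORFs, 3032 had another start codon, 53.9% (52.6% to 55.2%), all at distances that are multiples of 3 nt. With cycloheximide the start was further upstream in 1996 of these, or 65.8% (64.1% to 67.5%), and further downstream in 1036. The median distance was 396 nt upstream and 354 nt downstream, with 353 upstream and 172 downstream starts at 1000 nt or more. Transcripts of a gene share start codons, so these pairs are not independent. They came from 1459 and 837 stop codons.

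**Figure D4:**
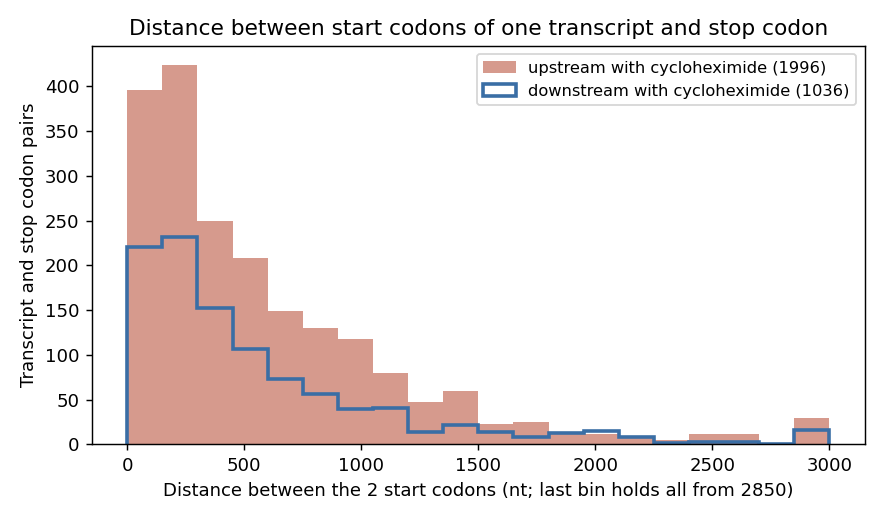
Distance between the start codons of the lists (x axis, nt) for transcript and stop codon pairs that differ in start (y axis, number of pairs). Filled red bars are pairs with the start further upstream with cycloheximide (1996) and the blue outline those with it further downstream (1036). Both fall off alike with distance, and upstream starts outnumber downstream ones in every bin up to 1500 nt.

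ORFs with a moved start differed in P-sites more than in density. ORFs with an upstream start with cycloheximide had a median relative difference of 0.23 in P-sites and −0.13 in P-sites per nt. Those with a downstream start had −0.37 in P-sites and 0.02 in P-sites per nt. ORFs with the same start in both lists had −0.01. The calls of a pair end at the same stop codon, so the longer one covers the span of the shorter by construction. Their P-sites came from different libraries, so the longer call need not have more.

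**Figure D5:**
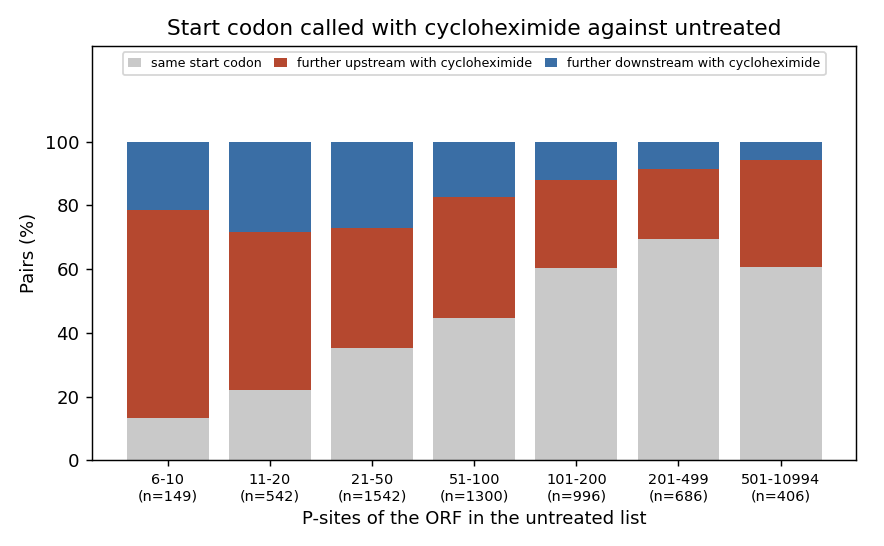
Share of transcript and stop codon pairs (y axis, %) with the same start codon in both lists (grey), a start further upstream with cycloheximide (red) or further downstream (blue), by the P-sites of the ORF in the untreated list (x axis, with the number of pairs). The grey share is 13.4% at 6 to 10 P-sites and 69.5% at 201 to 499.

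As the plot of start codons by coverage shows, the start was the same in 13.4% of 149 pairs with 6 to 10 P-sites in untreated cells, in 44.8% of 1300 with 51 to 100 and in 69.5% of 686 with 201 to 499. Among 406 pairs above 500 P-sites it was the same in 60.6%. Here 137 starts were upstream and 23 downstream with cycloheximide, so that 85.6% of the moved starts were upstream, against 58.1% at 21 to 50 P-sites. Upstream starts outnumbered downstream ones in every class of coverage.

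The E-RNaseI lists were used to see which of the start codons was called elsewhere. Of the starts upstream with cycloheximide, the E-RNaseI list with cycloheximide held the same upstream start in 64.2% (62.1% to 66.3%) of 1984 pairs and the untreated start in 3.48%. The deep untreated list likewise held the cycloheximide start in 59.9% (57.7% to 62.0%) of 1992 and the untreated start in 2.56%, with a start still further upstream in 30.3%. In the standard untreated E-RNaseI list the shares were 33.5% and 27.4% of 1891. An untreated list, deeper and of another RNase and buffer, therefore gave the upstream start too. Depth and footprinting conditions were not told apart here. For starts downstream with cycloheximide it was the untreated start that recurred, in 44.5% (41.5% to 47.6%) of 1035 pairs in the deep list, against 5.80% for the cycloheximide start. Whichever list had the upstream start was more often matched.

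The largest upstream distances with at least 50 P-sites in both lists were in genes with long ORFs. spen, a nuclear RNA-binding repressor, started 5838 nt further upstream with cycloheximide, with 147 P-sites on 15891 nt, against 70 on 10053 nt untreated. tou, a chromatin remodelling protein, started 3165 nt upstream, with 181 P-sites with cycloheximide and 91 untreated. IntS1 of the Integrator complex moved by 2865 nt (220 and 151 P-sites), the calcium channel Itpr by 2625 nt (146 and 75) and the chromatin helicase kis by 2619 nt (547 and 331). Per 100 nt, spen had 0.93 P-sites with cycloheximide and 0.70 untreated, and IntS1 3.71 and 4.92. In the deep untreated list spen and Itpr had the start found here with cycloheximide, and tou, IntS1 and kis one yet further upstream.

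The 3 genes with the largest downstream distances at the same minimum of 50 P-sites in both lists, and with 1 host gene, were Svil, Msp300 and Khc-73. Svil, the supervillin, started 9552 nt further downstream with cycloheximide, with 141 P-sites on 3000 nt, against 214 on 12552 nt untreated. Msp300, the fly nesprin, moved by 9321 nt (92 P-sites with cycloheximide and 133 untreated) and the kinesin Khc-73 by 2163 nt (73 and 93). For all 3, the deep list had a start upstream of both. srp, the GATA factor of hemocytes, was read as a marker, and its start lay 1167 nt further upstream with cycloheximide, with 311 P-sites on 3792 nt, against 184 on 2625 nt untreated.

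Among the most covered ORFs with a moved start, looked up after the distances were seen, the distances were short. ERp60, a protein disulfide isomerase, started 132 nt further upstream with cycloheximide, with 3765 P-sites against 2954 untreated. The nucleoside diphosphate kinase awd moved upstream by 12 nt (2878 and 1720 P-sites) and Calr, the chaperone calreticulin, by 3 nt, or 1 codon (2403 and 2083). The cyclophilin Cyp1 moved downstream, by 186 nt (2194 and 2258).

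Upstream ORFs lie in the leader of an mRNA and can limit translation of the main ORF. They ended at 38 stop codons with cycloheximide and 8 untreated, a ratio of 4.75 (95% interval 2.26 to 10.0, derived from a Wilson interval). With at least 10 P-sites in both lists the ratio was 9, and with at least 20 it was 7.5, over 30 and 17 stop codons in all. Only 2 were in both lists, those of Xrp1 and PPP1R15. With E-RNaseI there were 107 with cycloheximide and 19 untreated, and the deep untreated list had 238. The E-RNaseI list with cycloheximide held 16 of the 38 as uORFs, its untreated counterpart 5 and the deep list 15. Of the 8 untreated ones, these lists held 3, 2 and 5. The median uORF was 57.0 nt long with 12.5 P-sites with cycloheximide, and 91.5 nt long with 9 P-sites untreated. At a minimum of 6 P-sites times the depth ratio, 27 of the 38 stop codons with cycloheximide were left.

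At any length, uORFs numbered 40 with cycloheximide and 8 untreated. Whether the shortest were more confined to the list with cycloheximide than the others was not tested. At most 7 codons were held by 11 uORFs with cycloheximide and 1 untreated. Among them were those of Moe, the fly moesin (20 P-sites with cycloheximide on 21 nt), of Manf, a secreted protein of the endoplasmic reticulum (16 on 21 nt), of the kinase polo (23 on 18 nt) and of the transcription factor Myc (20 on 21 nt). None of these was in the untreated list. Their host ORFs were called in both: the Moe ORF had 1840 P-sites with cycloheximide and 1063 untreated, and that of Manf 1221 and 762. With E-RNaseI the Manf uORF had 102 P-sites with cycloheximide, and neither the standard nor the deep untreated list held it. The uORFs of polo and Myc were likewise in both cycloheximide lists and in no untreated list, while the deep list held that of Moe. Stop codons of the short uORFs of Fis1, elm and the spans of CG2082 and Sec8 were also in the E-RNaseI list with cycloheximide. Those of MAN1 (24 P-sites on 21 nt), gbb (13 on 15 nt), Apt1 (10 on 15 nt) and Pect (6 on 12 nt) were not.

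The 6 uORFs with most P-sites with cycloheximide were those of Xrp1, Arf6, Dp1, PPP1R15 and a shared one. Xrp1 had 148 on 354 nt, against 45 on 186 nt with the same stop codon untreated. Arf6, a GTPase of the cell membrane, had uORFs of 90 and 54 nt that share a start, with 112 and 104 P-sites with cycloheximide, and none was called untreated. Both uORFs were in every E-RNaseI list, with 244 and 221 P-sites with cycloheximide and 60 and 19 in the standard untreated list. On other Arf6 transcripts, ORFs with the same start and stop codons were typed as CCDS. In the A-RNaseI list with cycloheximide these had the same 112 and 104 P-sites. The main Arf6 ORF was called with 255 P-sites with cycloheximide and 80 untreated, with different starts. The uORF of Dp1, a vigilin-type RNA-binding protein, had 62 P-sites and was in no other list. PPP1R15, a phosphatase subunit that acts on eIF2, had a uORF of 105 nt with 33 P-sites with cycloheximide and 38 untreated (−0.70, −1.42 to 0.01). Its main ORF was called only with cycloheximide, with 22 P-sites. A uORF of 63 nt in the spans of CG33095 and CG33096 had 33 P-sites.

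The other 6 untreated uORFs were not called with cycloheximide and had between 7 and 11 P-sites. They lay in Herc4, Tdg, fdl, Pxn, ps and scat. The main ORF of each was called in both lists, as in Pxn, the peroxidasin of the matrix (754 P-sites with cycloheximide and 593 untreated), ps, a splicing regulator (193 and 128), and Herc4, a ubiquitin ligase (112 and 61). The uORFs of Herc4, Tdg and fdl were also in the deep list. The stop codon of the Tdg uORF was in the E-RNaseI list with cycloheximide too, with 53 P-sites.

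Each list held 1 dORF, that of tmod, the actin-capping tropomodulin, with 17 P-sites on 90 nt with cycloheximide, and that of mthl3, a receptor of the methuselah family, with 7 on 165 nt untreated. Both were in both standard E-RNaseI lists. ncORFs numbered 6 with cycloheximide, all with 6 to 20 P-sites, and 1 untreated. They lay with cycloheximide on lncRNA:CR44999, lncRNA:CR43144, lncRNA:CR32027, the snoRNA host Uhg1 and, on a pair of transcripts, lncRNA:CR43241. That of lncRNA:CR44999 has the same coordinates as the Myc uORF, so its 20 P-sites are the same ones. The ncORFs of lncRNA:CR43241 start at the same place as a uORF of CG42748 with 8 P-sites. The untreated one was on lncRNA:CR43855, with 18 P-sites on 162 nt.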

How the data were processed

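RNase footprints of S2 cells were analysed from the lists of translated ORFs that the authors deposited. Per the methods, adapters were trimmed with cutadapt 2.10, rRNA and tRNA reads removed with Bowtie2 2.4.1, the rest mapped with STAR 2.7.5c to Release 6, and ORFs called with RiboTaper. The deposited counts are whole numbers of P-sites per ORF, not normalized and repeated on each exon. No source names this number, which was read as P-sites. The methods describe subsampling to a common number of reads, but whether the lists come from it is not stated.

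Values were computed with pandas 2.3.3, numpy 2.4.6 and scipy 1.17.1 under Python 3.11.15, and figures drawn with matplotlib 3.10.9. Exon lines were joined by ORF name, and each ORF was counted once. A stop codon was its chromosome, strand and last position. An ORF was given a gene where its span lay within exactly 1 of the protein-coding genes of the 17872 in the RefSeq table (Release 6, no strand), or 1 non-coding gene for ncORFs. This held for 93.9% of ORFs with cycloheximide and 95.0% untreated. Coordinates count from 1, and 1 outer edge can be off by 1 nt.

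Relative P-sites were scaled by the ratio of sums over ORFs with identical exons, 1 per stop codon, and called at 2-fold with at least 50 P-sites in the lists together. Intervals are 95% Wilson or exact conditional binomial intervals. With 1 library per condition no test was run. Named were the 8 highest and 8 lowest relative P-sites among ORFs with 1 gene and at least 100 P-sites, and all past 2-fold, the 6 gained and 6 lost stop codons with most P-sites, the 5 largest upstream and 3 largest downstream start distances, the dORFs and ncORFs, the untreated uORFs and 6 of those with cycloheximide, the 3 most covered ORFs, leading members of gene lists, and RpL40. Other names were chosen after their values were seen. Members and gene lists, which were matched by symbol and can include paralogs, were chosen with earlier results of these data known. The matching was tested on simulated data, where 7 of 7 known numbers were recovered exactly. Those data had more P-sites per ORF than the real lists, and starts moved by a fixed distance on single-exon ORFs. The recovery thus checks the bookkeeping and says nothing about thinly covered calls.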

Additional observations from a re-analysis of the deposited data

How the results depend on the processing

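No paired analysis was possible because each condition had 1 library. With at least 10 P-sites in both lists the share of untreated stop codons found with cycloheximide was 88.3%, and with at least 20 it was 91.3%, with 331 stop codons lost, 49.8% of pairs with another start, 67.7% of moved starts upstream and 91.4% of untreated genes found. Counted once per stop codon, 55.6% had another start. At 20 P-sites in the lists together, 12 ORFs were at least 2-fold lower. At 200 P-sites 4 ORFs were higher and 1 lower, and the lowest quartile of length was 0.12 above the highest. With all shared stop codons, each list's own ORF and P-sites per nt, 72 of 3537 were higher, 38 lower, the length difference was 0.13, and the median of cytosolic ribosomal proteins was −0.047, against 0.046 in the main setting. Moved starts enter that setting, and whether they account for the change was not tested. In the E-RNaseI pair, 97.8% of untreated stop codons and 98.2% of genes were found with cycloheximide, 127 stop codons were lost, 47.9% of pairs had another start, 76.4% of moved starts were upstream, 59 ORFs were higher and 20 lower, and the length difference was 0.23. The ratio of uORF stop codons was 9 at 10 P-sites and 7.5 at 20, within the counting interval of 4.75. At 20 P-sites in the lists together 18 ORFs were higher, against 13. Median scaling changed no count of ORFs, and the depth-scaled minimum left 1142 stop codons gained and 624 lost. The share of ORFs that hold the whole RefSeq protein was planned and not run, for want of a protein table. The median gained stop codon rested on 26.0 P-sites.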
